A study of Mus musculus with 32 samples.

Results

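The messenger RNAs of 10 repressors of germline promoters were measured in the brains of mice that lack the histone demethylase KDM5C, carry a deleted copy of the methyltransferase gene *Kmt2a*, or both. The genes formed a fixed list, *E2f6*, *Mga*, *Max*, *L3mbtl2*, *Pcgf6*, *Rnf2*, *Cbx3*, *Dnmt1*, *Setdb1* and *Ehmt2*, and all 10 were found among the 53715 genes of the gene tables. RNA-seq of bulk amygdala and hippocampus came from 16 adult male F1 mice of a 129xB6 cross, 4 per genotype, and each mouse gave both regions (32 libraries). The genotypes were WT, 2a-HET (heterozygous for a *Kmt2a* allele whose floxed exons had been deleted through a ROSA26 Cre line), 5c-KO (males with a knockout allele of the X-linked *Kdm5c*) and DM, which carries both mutations. All mice were hybrids of a 129S1/SvImJ father and a C57BL/6J mother, and the deletions were present from the germline onward rather than in a chosen cell type.

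In the mouse, PRC1.6, a variant Polycomb complex, is brought to promoters by the DNA-binding proteins E2F6, MGA and its partner MAX. Its other subunits include L3MBTL2, PCGF6, the ubiquitin ligase RNF2 (RING1B) and CBX3 (HP1γ). In somatic cells the complex keeps genes of meiosis and sperm formation silent, and DNMT1, which copies DNA methylation at cell division, and SETDB1 and EHMT2 (G9a), which methylate histone H3 at lysine 9, act on overlapping sets of those genes. KDM5C, which removes methylation from histone H3 at lysine 4, is itself known to hold some germline genes off in brain.

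MAX with MGA reads the E-box CACGTG, and E2F6 reads E2F sites, searched here by the letters GCGGGA. Both motifs were looked for on both strands in RefSeq promoter windows of GRCm38.p6 that run from 250 bases before to 50 bases after each gene's start; a match of one motif can share no more than its end base with a match of the other. Of the 27025 genes with a window, 8.09% held the E-box, 22% the E2F letters and 2.65% both, counting a gene once if any of its windows held the letters. Among 24 germline genes listed as targets of such repression, 22 had a window, and 11 of these held the E-box, 11 the E2F letters and 7 both (50%, 50% and 31.8%). Some of these genes are known as targets of these same factors, so the shares describe the list and are no independent evidence. The repressors' own windows held the E-box in 2 of 10 genes (*Max* and *Ehmt2*), the E2F letters in 4 of 10 (*E2f6*, *Rnf2*, *Dnmt1*, *Ehmt2*) and both in *Ehmt2* alone.

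The windows of 3 germline genes on which later results turn, and that of *Ehmt2*, are shown 5′ to 3′ on the gene's strand with the motif matches in capitals. *Ddx4*, an RNA helicase of germ cells, lies on the minus strand at chr13:112652261-112652560, with the E-box 29 bases and the E2F letters 136 bases before its start. *Sycp3*, an axial protein of the meiotic chromosome, lies on the plus strand at chr10:88459337-88459636, with 2 E-boxes 64 and 43 bases and the E2F letters 147 bases before its start. *Cyct*, the testis form of cytochrome c, lies on the minus strand at chr2:76360404-76360703 and has the E2F letters 23 bases before its start and no E-box in the window. *Ehmt2* lies on the plus strand at chr17:34898224-34898523, with E-boxes 232 and 26 bases before and the E2F letters 37 bases after its start. *Zcwpw1*, also called later, held neither motif in its 2 windows and is not shown.
Ddx4: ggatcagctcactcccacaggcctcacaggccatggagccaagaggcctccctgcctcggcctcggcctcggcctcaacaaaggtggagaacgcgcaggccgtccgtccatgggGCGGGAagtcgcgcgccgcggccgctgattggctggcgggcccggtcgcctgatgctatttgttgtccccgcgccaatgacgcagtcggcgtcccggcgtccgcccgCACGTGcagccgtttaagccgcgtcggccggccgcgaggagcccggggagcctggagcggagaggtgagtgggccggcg
Sycp3: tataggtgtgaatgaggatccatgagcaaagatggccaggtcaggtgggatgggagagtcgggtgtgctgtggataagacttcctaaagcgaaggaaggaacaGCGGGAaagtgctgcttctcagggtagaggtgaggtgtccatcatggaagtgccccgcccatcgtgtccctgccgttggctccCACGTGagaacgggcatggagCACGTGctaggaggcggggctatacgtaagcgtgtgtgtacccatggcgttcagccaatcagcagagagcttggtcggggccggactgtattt
Cyct: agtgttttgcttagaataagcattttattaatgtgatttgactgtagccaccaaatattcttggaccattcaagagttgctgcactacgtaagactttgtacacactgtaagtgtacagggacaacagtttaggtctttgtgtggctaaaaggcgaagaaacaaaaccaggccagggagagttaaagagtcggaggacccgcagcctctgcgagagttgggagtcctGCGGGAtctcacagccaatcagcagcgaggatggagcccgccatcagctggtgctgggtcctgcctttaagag
Ehmt2: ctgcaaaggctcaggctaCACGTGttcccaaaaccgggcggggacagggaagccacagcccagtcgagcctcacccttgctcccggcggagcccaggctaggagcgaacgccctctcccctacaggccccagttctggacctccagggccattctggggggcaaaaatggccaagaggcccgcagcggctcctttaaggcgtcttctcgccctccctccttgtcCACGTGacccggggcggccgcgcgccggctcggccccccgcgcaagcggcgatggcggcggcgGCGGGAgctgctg

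Across libraries, gene counts summed to between 19215503 and 26033615 in amygdala and between 19322262 and 27798980 in hippocampus, and the 10 repressors together took 0.0712% to 0.0804% of them in amygdala and 0.0669% to 0.0730% in hippocampus. All 10 passed every filter on low counts. The hippocampal markers *Fibcd1*, *Spink8*, *Lct* and *C1ql2* were higher in every hippocampal library than in any amygdala library. *Fibcd1* ranged from 114.5 to 260.4 against 12.7 to 27.4 CPM. CPM is a gene's share of all gene counts of a library on the usual CPM scale. Of the other listed hippocampal markers, *Prox1* overlapped (35.1 to 195.1 against 10.6 to 44.2 CPM). *Wfs1* overlapped too, and its median was lower in hippocampus (194.4 against 220.5 CPM). Choroid plexus markers varied most between libraries, with a summed level of 4 genes of 27.7 to 1702 CPM in amygdala and 10.6 to 4246 in hippocampus. The targeted genes gave only a partial check of the labels, since the deletions remove a few exons of each: the normalised count of *Kdm5c* was 1620 ± 329 in WT and 1300 ± 89.7 in 5c-KO amygdala (SD, n = 4), and that of *Kmt2a* was 4203 ± 1491 in WT and 4241 ± 474 in 2a-HET. In bulk tissue, fewer cells of a type and less RNA per cell cannot be told apart, and this holds for every value below.

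Levels between genes were compared per length, as CPM divided by the length of a gene's exons in kilobases. In WT amygdala *Ehmt2* stood highest with 60.4 ± 9.60, followed by *Cbx3* with 19.1 ± 0.848 (SD, n = 4). *Max* (11.2 ± 1.54) and *Dnmt1* (9.84 ± 0.756) came next, and their ranges over the 4 libraries overlapped. *L3mbtl2* followed with 7.47 ± 0.674. *Setdb1* (5.78 ± 0.569) and *E2f6* (5.45 ± 0.561) overlapped each other, as did *Rnf2* (3.99 ± 0.221) and *Mga* (3.5 ± 1.15), and *Pcgf6* was lowest with 1.6 ± 0.109. In WT hippocampus the order was the same except that *Rnf2* (5.49 ± 1.03) stood above *E2f6* (4.14 ± 0.186), with overlapping ranges. Of the 3 DNA-binding subunits, *Max* was highest and *Mga* lowest in both regions. With the mean length of the counted transcripts in place of all exons, the order in amygdala changed in that *E2f6* stood above *Setdb1* (12.5 ± 1.31 against 8.04 ± 0.761). *Ehmt2* (89.2 ± 15.5) and *Cbx3* (64.8 ± 2.07) then lay closer together there than by exon length. In hippocampus *E2f6* (9.61 ± 0.422) then stood above *Setdb1* (8.03 ± 0.210) and *Rnf2* (7.53 ± 1.39), so its exchange with *Rnf2* was seen by exon length alone, and *L3mbtl2* (12.5 ± 1.07) stood above *Dnmt1* (10.8 ± 0.992), with overlapping ranges. *Cbx3* has 8 named pseudogenes in the annotation, with which reads could have been shared, so its level is uncertain.

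**Figure D1:**
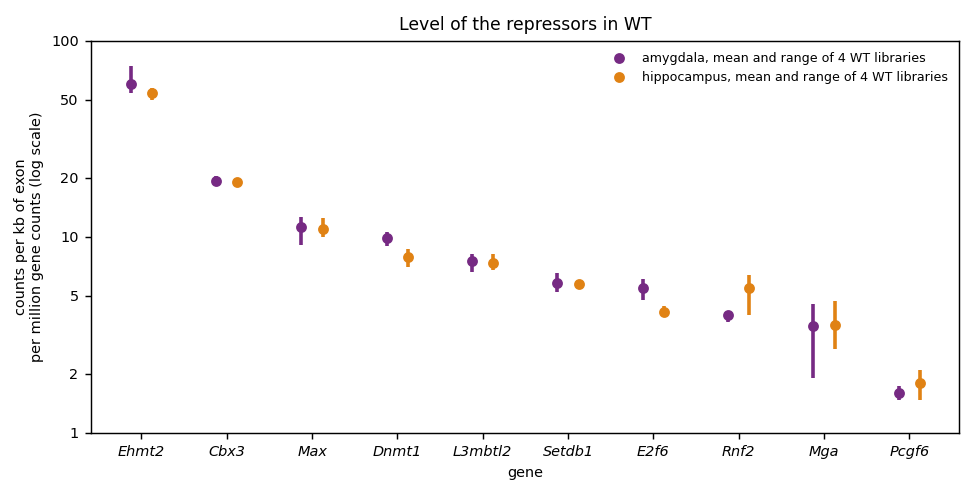
Level of the 10 repressors in WT, in CPM per kilobase of exon (log axis), with the mean (point) and range (line) of 4 libraries in amygdala (purple) and hippocampus (orange). *Ehmt2* lies near 60 in amygdala and *Pcgf6* under 2, and *E2f6* and *Rnf2* exchange places between the regions on this scale, though not by transcript length.

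Whether loss of *Kdm5c*, the *Kmt2a* deletion or both changed the repressors was asked in each region with DESeq2 at an adjusted p under 0.1 over all genes tested. None of the 10 was called against WT in 2a-HET, 5c-KO or DM, in either region. With the replicate number as a block, *Dnmt1* was called in DM hippocampus (-0.25, DESeq2 adjusted p = 0.0965). Without the block, over these 60 tests the log2 differences lay between -0.25 and 0.29, their standard errors between 0.068 and 0.22, and their 95% intervals within -0.49 and 0.67. At an unadjusted p under 0.05, 3 of the 60 passed (*E2f6* in 2a-HET amygdala and *Dnmt1* in 5c-KO and DM hippocampus), and edgeR called 0 of 10 in each of the 6 comparisons. Scaling to the ERCC spike-in RNA also called 0 of 10 in each, but shifted the median of all genes by between -0.557 (DM hippocampus) and 0.173 (5c-KO hippocampus), so the differences are relative to the other genes. *Mga* in DM hippocampus was 0.29 by the default scaling and -0.27 by ERCC. The shares of all genes called were small for 2a-HET against WT (0.00329% in amygdala and 0% in hippocampus) and larger for 5c-KO against WT (0.751% and 1.01%) and DM against WT (0.966% and 0.875%). The widest intervals were those of *Mga* and *Pcgf6*, and a p that misses the threshold does not show that a level was equal.

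**Figure D2:**
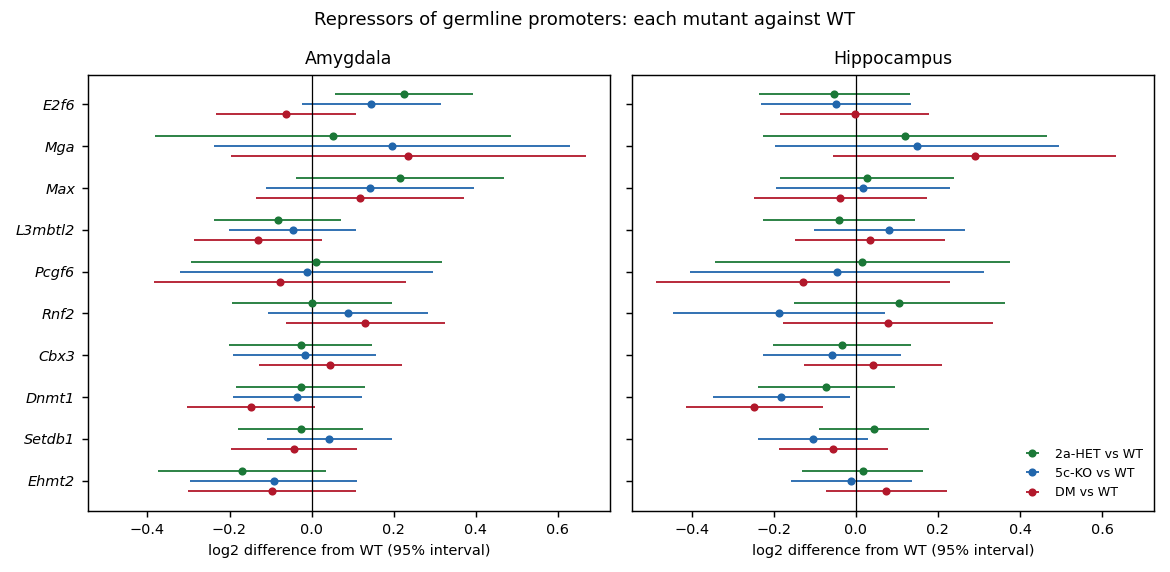
Log2 difference from WT of each repressor in 2a-HET (green), 5c-KO (blue) and DM (red), in amygdala (left) and hippocampus (right), with 95% intervals from the DESeq2 fit of 16 libraries per region. All 60 estimates lie between -0.25 and 0.29, and the widest intervals belong to *Mga* and *Pcgf6*.

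*E2f6* (ENSMUSG00000057469.8, chr12:16810963-16839742 of mm10, plus strand) is the E2F family member that represses without the need of RB proteins. In amygdala its normalised count was 643, 770, 707 and 736 in the WT libraries and 945, 796, 784 and 813 in the 2a-HET libraries. In 5c-KO it was 787, 805, 765 and 804, and in DM 660, 645, 725 and 705. Each 2a-HET value thus lay above each WT and each DM value, and the DM values lay below all 5c-KO values. DM against 2a-HET was the comparison of genotypes in amygdala in which a repressor was called: *E2f6* was lower in DM by a log2 difference of -0.29 (SE 0.086, adjusted p = 0.0990), where 0.845% of all genes were called. That call lay at the threshold and was kept in 2 of 16 fits that each left out 1 library. These were the fits without WT replicate 1 or WT replicate 2 (DESeq2 adjusted p 0.0372 to 0.450 over the 16). edgeR gave an adjusted p of 0.282. A block on the replicate number ended the call too (-0.29, DESeq2 adjusted p = 0.130). The 2a-HET difference from WT was 0.23 (SE 0.086, DESeq2 unadjusted p = 0.00879, adjusted p = 0.998). The lowest WT value and the highest 2a-HET value were both those of the library numbered 1. Without the library numbered 1 of every group, the 2a-HET difference was 0.11 (SE 0.087, DESeq2 unadjusted p = 0.194).

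The interaction of both mutations, that is how far DM lay from additive single-mutant changes, was -0.43 for *E2f6* in amygdala (SE 0.12, unadjusted p = 0.000383, adjusted p = 1), in a contrast that called 0.00329% of genes, and without WT replicate 2 it was called at an adjusted p of 0.0664. Without the library numbered 1 of every group the interaction was -0.31 (SE 0.12, DESeq2 unadjusted p = 0.0133) and not called. DM against 5c-KO gave -0.21 (SE 0.087, adjusted p = 1) where the share of genes called was also 0.00329%. In hippocampus the pattern was not seen, with group means of *E2f6* of 540 ± 24.6 in WT, 520 ± 36.5 in 2a-HET, 522 ± 52.4 in 5c-KO and 538 ± 33.0 in DM (SD, n = 4). The difference between the regions in the 2a-HET change was -0.28 (SE 0.11, unadjusted p = 0.0146, adjusted p = 1; 0% of genes called), so it did not pass the test. Choroid plexus markers summed to 29.6 to 1702 CPM in DM and 35.2 to 40.4 in 2a-HET amygdala, 2 of 4 of these markers were called higher in DM, and their part in the *E2f6* difference was not tested.

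*Mga* (ENSMUSG00000033943.15, chr2:119897228-119969581, plus strand), the scaffold that pairs with MAX, varied most among replicates. In WT amygdala it was 693, 1371, 1273 and 1611, and the coefficient of variation within the 8 groups ran from 13.6% to 31.5%. In each of the 8 groups the library numbered 1 held the lowest value of *Mga*, between 0.23 and 0.77 log2 units under its group mean. In the same 8 libraries *Max* (ENSMUSG00000059436.13, chr12:76937269-76962201, minus strand), the partner of MGA and MYC proteins, lay above its group mean, by a median of 0.21 log2 units in amygdala and 0.13 in hippocampus. *Cbx3* also lay above its group mean in all 8, and *Kmt2a* was lowest in the library numbered 1 of each group (2163 against 4141 to 5639 in WT amygdala). The number of a library is not given a meaning in the labels, and what sets these libraries apart was not tested. With all 8 left out, 0 of 10 repressors was called in each comparison between genotypes, *E2f6* and *Dnmt1* included.

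DM had the highest mean of *Mga* in both regions, 1457 ± 292 against 1237 ± 389 in WT amygdala and 1532 ± 208 against 1253 ± 306 in WT hippocampus. The differences of 0.24 and 0.29 on the log2 scale were not called (DESeq2 adjusted p = 1 and 0.767). A block on the replicate number gave 0.27 in amygdala (SE 0.14, adjusted p = 0.890) and 0.30 in hippocampus (SE 0.11, adjusted p = 0.234). The unadjusted DESeq2 p of the blocked hippocampal difference was 0.00513. *Max* showed its largest difference in 2a-HET amygdala, 1086 ± 149 against 936 ± 127 in WT, a log2 difference of 0.22 (SE 0.13, adjusted p = 0.998).

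**Figure D3:**
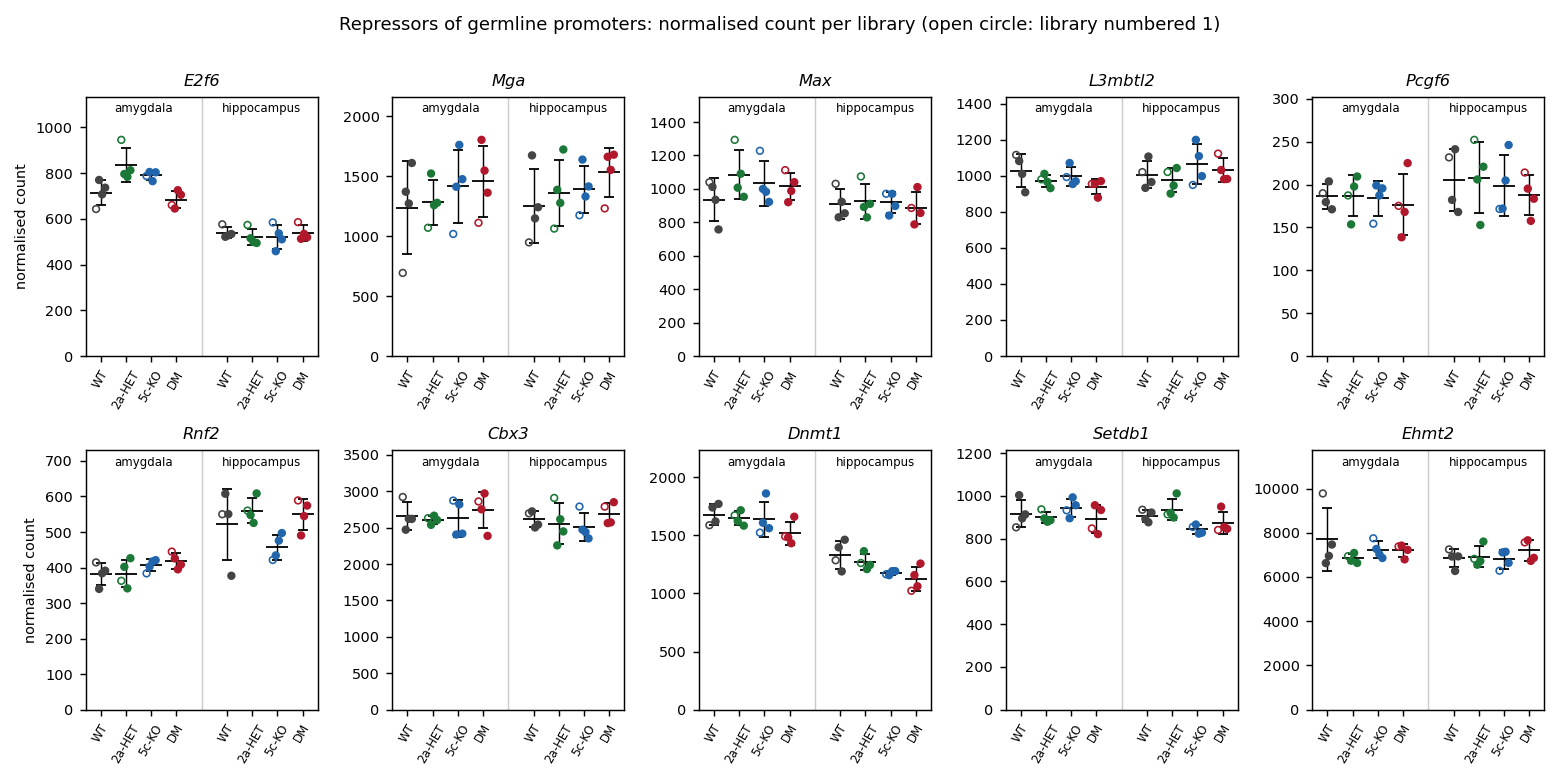
Normalised count of each repressor in every library (points; the open circle is the library numbered 1), by genotype, amygdala left and hippocampus right of the grey line, with group mean and SD (bars, n = 4) and axes starting at 0. For *Mga* the open circle is the lowest point of all 8 groups, and for *E2f6* the amygdala points lie above the hippocampus points.

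Among the other PRC1.6 subunits, no comparison between genotypes gave a call. *L3mbtl2* (ENSMUSG00000022394.14, chr15:81663889-81688315, plus strand), a reader of methylated histones that overlaps exons of *Chadl* on the other strand, was 1029 ± 91.6 in WT and 940 ± 41.5 in DM amygdala, a log2 difference of -0.13 (adjusted p = 0.852). *Pcgf6* (ENSMUSG00000025050.7, chr19:47033617-47050906, minus strand), the subunit that defines PRC1.6 among PRC1 complexes, was the least expressed, with 138 to 252 normalised counts over all libraries of both regions. *Rnf2* (ENSMUSG00000026484.13, chr1:151458004-151500955, minus strand), which shares exonic bases with *Trmt1l* on the other strand, was 550, 608, 551 and 377 in WT and 421, 434, 476 and 497 in 5c-KO hippocampus. The low value of WT replicate 4 lay under all 5c-KO values, and the other 3 lay above them. The log2 difference was -0.19 (SE 0.13, adjusted p = 0.834), while in amygdala it was 0.09 (SE 0.099, adjusted p = 1). *Cbx3* (ENSMUSG00000029836.15, chr6:51470360-51483704, plus strand) stayed within -0.06 and 0.04 log2 units of WT in all mutants.

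*Dnmt1* (ENSMUSG00000004099.16, chr9:20907209-20959888, minus strand) was the member that differed with the *Kdm5c* genotype in hippocampus. Its normalised count there was 1286, 1397, 1190 and 1462 in WT and 1262, 1364, 1210 and 1245 in 2a-HET. In 5c-KO it was 1165, 1157.5, 1192 and 1192, and in DM 1023, 1157.5, 1062 and 1257. The highest value was in WT and the lowest in DM, and the 8 libraries without *Kdm5c* overlapped the 8 with it. With both mutations as additive factors, *Dnmt1* was lower without *Kdm5c* by a log2 difference of -0.18 (SE 0.058, 95% interval -0.29 to -0.07, adjusted p = 0.0832), or 11.7% of its level on the linear scale, in a comparison that called 2.66% of genes. Of the 10 repressors it was the only one called there.

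The call on *Dnmt1* was kept in 3 of 16 fits that each left out 1 library (those without WT replicate 3, 2a-HET replicate 3 or DM replicate 4), with log2 differences of -0.21 to -0.16 and adjusted p of 0.0256 to 0.218. edgeR gave an adjusted p of 0.169, and with the libraries numbered 1 left out it was 0.393. The call was kept with the replicate number as a block (-0.18, SE 0.052, DESeq2 adjusted p = 0.0329). Against WT, the difference was -0.25 in DM (SE 0.085, unadjusted p = 0.00358, adjusted p = 0.229) and -0.18 in 5c-KO (SE 0.085, adjusted p = 0.538), and the DM comparison passed without WT replicate 3 (adjusted p = 0.0872) or without DM replicate 4 (adjusted p = 0.0743). In amygdala the additive fit called 0 of 10 repressors, where 1.68% of genes were called, and the difference between DM and WT in *Dnmt1* was -0.15 (adjusted p = 0.777). The markers of choroid plexus summed to 13.3 to 1035 CPM in WT, 10.6 to 86.0 in 2a-HET, 21.6 to 4246 in 5c-KO and 14.3 to 982 in DM hippocampus, 3 of 4 of them were called higher without *Kdm5c*, as was 1 of 5 astrocyte markers (summed to 1101 to 1283 in WT and 1390 to 1660 in DM) and 1 of 6 hippocampal markers, while 1 of 5 oligodendrocyte markers was called lower, and their part in the *Dnmt1* difference was not tested.

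*Setdb1* (ENSMUSG00000015697.14, chr3:95323525-95357202, minus strand), which shares exonic bases with *Cers2* on the other strand, had a difference of -0.10 without *Kdm5c* in hippocampus (SE 0.046, unadjusted p = 0.0270, adjusted p = 0.370), with 843 ± 20.7 in 5c-KO and 906 ± 26.9 in WT (SD, n = 4). *Ehmt2* (ENSMUSG00000013787.15, chr17:34898469-34914052, plus strand) was 9778.5, 6629, 6954 and 7467 in WT amygdala, so that 1 WT library stood above the others and above all mutant libraries. Its differences from WT lay between -0.17 (2a-HET amygdala) and 0.07. With the libraries numbered 1 left out, the difference of *Ehmt2* in 2a-HET amygdala was -0.04. For the *Kmt2a* genotype as an additive factor, 0 of 10 was called in amygdala (0% of genes) and 0 of 10 in hippocampus (0.103% of genes), where *Rnf2* had the smallest unadjusted p (log2 difference 0.19, SE 0.091; unadjusted p = 0.0417 and adjusted p = 0.580 in DESeq2). The hippocampal comparisons of DM with 5c-KO (0.0067% of genes called), DM with 2a-HET (0.603%) and the departure from additivity (0%) called 0 of 10 as well, with 1, 1 and 0 repressors at an unadjusted p under 0.05. edgeR called 0 of 10 in each of these 5 comparisons.

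The regions were compared over the same mice. On a scale common to all 32 libraries, 5 of the 10 repressors were called between hippocampus and amygdala over the 4 genotypes, 3 higher and 2 lower in hippocampus, where 47% of all genes were called, so the repressors' share lay near that background. *E2f6* ranged from 617 to 909 with a median of 748 in amygdala and from 477 to 608 with a median of 542 in hippocampus. Its values were lower in hippocampus in all 16 mice, and the ranges of the regions did not overlap. The log2 difference was -0.41 (SE 0.040, adjusted p = 2.04e-23), a level 24.9% lower. *Dnmt1* was also lower in hippocampus in 16 of 16 mice, with medians of 1565 and 1240 and a log2 difference of -0.31 (SE 0.038, adjusted p = 8.13e-15).

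*Rnf2* went the other way in 16 of 16 mice. It ranged from 330 to 429 with a median of 390 in amygdala and from 387 to 632 with a median of 562 in hippocampus, a log2 difference of 0.49 (SE 0.056, adjusted p = 6.01e-17). *L3mbtl2* was higher in hippocampus in 13 of 16 mice by 0.15 (SE 0.040, adjusted p = 0.000916), and *Pcgf6* in 13 of 16 mice by 0.22 (SE 0.083, adjusted p = 0.0236), which with the libraries numbered 1 left out was 0.15 (adjusted p = 0.226). *Mga*, *Max*, *Cbx3*, *Setdb1* and *Ehmt2* were not called, with differences of -0.06 to 0.13, though *Ehmt2* was called without WT amygdala replicate 1 (0.07, adjusted p = 0.0838) and with all libraries numbered 1 left out (0.07, adjusted p = 0.0956). With the mouse as a block *Mga* was also called (0.15, SE 0.070, adjusted p = 0.0825). Called repressors thus lay on both sides: the DNA binder *E2f6* and the methyltransferase *Dnmt1* were lower, and the subunits *Rnf2*, *L3mbtl2* and *Pcgf6* were higher.

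Within the WT mice, 3 of 10 were called (21.6% of genes), *E2f6* at -0.31 (SE 0.081, adjusted p = 0.00126), *Rnf2* at 0.54 (SE 0.11, adjusted p = 2.82e-05) and *Dnmt1* at -0.24 (SE 0.076, adjusted p = 0.0138), and *Dnmt1* was not called when only the 8 WT libraries were fitted (adjusted p = 0.155). Scaled to the ERCC spike-in RNA instead of to the genes, all genes shifted upward in hippocampus by a median of 0.65 log2 units. *E2f6* and *Dnmt1* then had differences of 0.21 and 0.36, which lie 0.43 and 0.29 below that shift (-0.43 and -0.29 relative to it), and *Rnf2* had 1.11, which lies 0.46 above it. Region went together with the dissected tissue and with separate tables, and these cannot be told apart. The neuron markers were called higher in hippocampus for 4 of 5 genes and lower for the other, *Gad1* of inhibitory neurons. Those of oligodendrocyte precursors were lower for 2 of 2, those of dividing cells higher for 3 of 3 and those of hippocampus higher for 5 of 6. Astrocyte markers were higher for 1 and lower for 2 of 5, choroid plexus markers higher for 2 and lower for 1 of 4, and amygdala markers higher for 1 and lower for 2 of 5. Their part in the repressors' differences was not tested.

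**Figure D4:**
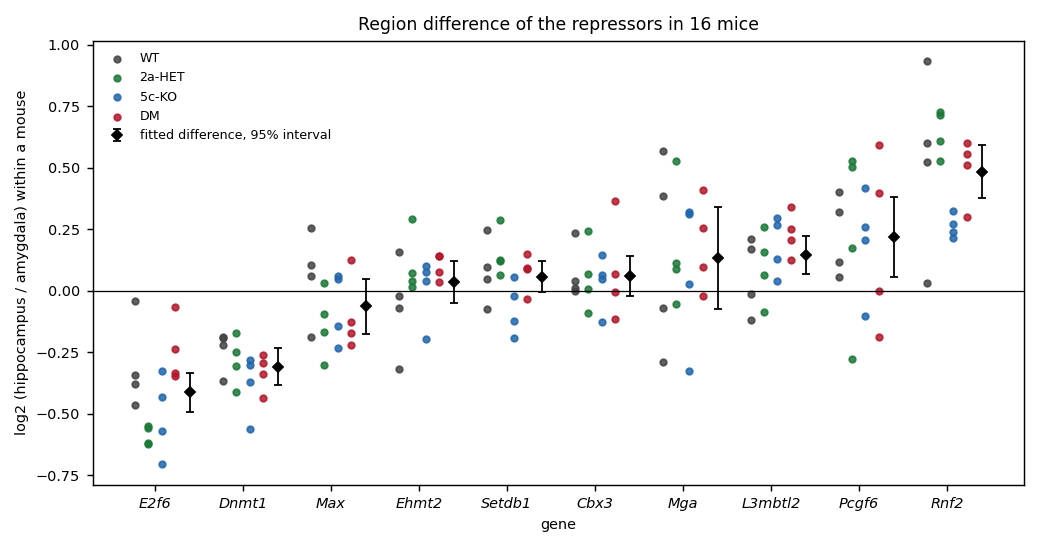
Log2 ratio of hippocampus to amygdala of each repressor within each of 16 mice (points, coloured by genotype), with the fitted difference over all genotypes and its 95% interval (diamond), ordered by that difference. All 16 points lie below 0 for *E2f6* and *Dnmt1* and above 0 for *Rnf2*.

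For none of the repressors did the change in a mutant differ between the regions by the test of the difference, with 0 of 10 called for 2a-HET (0% of genes), 5c-KO (0.00624%) and DM (0.00936%). At an unadjusted p under 0.05, 1, 0 and 0 passed, the same numbers as in edgeR, which called 0 of 10 in each.

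Over the 32 libraries, the deviations of the repressors from their group means were correlated as a description (Pearson's r of log2 normalised count + 1; the points share library and depth). Of the 45 pairs, 21 were positive, with a median r of -0.04. The highest was *Mga* with *Dnmt1* at 0.418, then *E2f6* with *Max* at 0.413 and *L3mbtl2* with *Ehmt2* at 0.410, and in each of these 3 pairs both genes had the other as their most alike member. *Rnf2* and *Pcgf6* were each other's most alike member (0.348). *Cbx3* was most like *Max* (0.308) and *Setdb1* most like *Mga* (0.403). The lowest was *Mga* with its partner *Max* at -0.707, which was -0.436 over the 24 libraries not numbered 1. The lowest pair over the 24 was *E2f6* with *Mga* at -0.481 (-0.244 over the 32). Over those 24, *E2f6* with *Max* was 0.408 and *Setdb1* with *Mga* 0.391, while *Mga* with *Dnmt1* was 0.242, *Rnf2* with *Pcgf6* 0.267 and *L3mbtl2* with *Ehmt2* 0.154, and *Cbx3* with *Max* turned to -0.258. The order turned too, with *Mga* and *Ehmt2* the highest pair at 0.464 (-0.423 over the 32), followed by *Setdb1* with *Ehmt2* at 0.448 (-0.05) and, after *E2f6* with *Max*, *Mga* with *Cbx3* at 0.407 (-0.386).

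The germline genes that such repressors hold off were examined beside them. In WT amygdala the most abundant of the 24 listed genes was *Tdrkh*, of the piRNA pathway, with a mean of 946 normalised counts, followed by *Brdt* (176), *Zcwpw1* (133), *Ddx4* (54.9) and the RNA-binding gene *Dazl* (38.1). *Asz1*, *Hormad1*, *Sohlh2*, *Stra8* and *Tex101* were at 0 in all WT libraries of both regions. In 5c-KO against WT the call in each region was *Cyct*, and 12 of 24 genes in amygdala and 13 in hippocampus had counts high enough to be tested. Of all genes tested, 0.751% were called in amygdala and 1.01% in hippocampus. *Cyct* had normalised counts of 0.989, 0, 1.08 and 0 in WT and 20.2, 6.86, 11.6 and 15.9 in 5c-KO amygdala. In hippocampus it had 1.12, 0, 1.08 and 0 in WT and 11.9, 8.11, 10.9 and 4.73 in 5c-KO. All mutant values lay above all WT values in both regions. The WT libraries of a region held 2 counts in all, so the ratio is given with its counting interval: 27.4-fold (95% exact interval 7.22 to 233) in amygdala and 17.9-fold (4.61 to 154) in hippocampus. The DESeq2 adjusted p was 0.00760 and 0.0426, and the hippocampal call was lost without WT replicate 2 or 4 or 5c-KO replicate 1 or 3 (adjusted p 0.115 to 0.183).

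*Sycp3* was the second gene by adjusted p in amygdala, with 13.8, 19.4, 5.39 and 18.2 in WT and 41.6, 34.3, 24.1 and 22.2 in 5c-KO, a log2 difference of 1.09 (SE 0.40, adjusted p = 0.397). In DM amygdala it was 41.3, 30.1, 34.8 and 62.5, a difference of 1.56 (SE 0.40, adjusted p = 0.0166), which was lost without WT replicate 3 (adjusted p = 0.117) or DM replicate 4 (adjusted p = 0.121). All 5c-KO and DM values lay above all WT values there. The other genes among the 4 with the smallest adjusted p in each region were *Tdrd1* and *Mael* in amygdala and *Dazl*, *Sycp3* and *Zcwpw1* in hippocampus, none of them called in 5c-KO (*Dazl* -0.67, SE 0.27, adjusted p = 0.379).

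DM against WT called *Sycp3* and *Cyct* in amygdala and *Cyct* in hippocampus, where *Cyct* had 16.9, 9.25, 14 and 21.9 normalised counts (30.6-fold over WT, 95% exact interval 8.13 to 257, adjusted p = 0.00353; without WT replicate 2 the fit gave it no adjusted p). In DM against WT, 15 of 24 listed genes were tested in amygdala and 13 in hippocampus, and 0.966% and 0.875% of all genes were called. With the additive *Kdm5c* factor, which sets 8 libraries against 8, *Cyct*, *Sycp3* and *Ddx4* were called higher in both regions. *Zcwpw1*, a reader of histone marks at meiotic break sites, was called lower in hippocampus. Under this factor 1.68% of all genes were called in amygdala and 2.66% in hippocampus. *Ddx4* was chosen for naming after its values were seen. Its log2 difference was 0.95 in amygdala (SE 0.27, adjusted p = 0.0312) and 0.89 in hippocampus (SE 0.22, adjusted p = 0.00606), which pools 2 comparisons. Against 2a-HET, DM was higher by 1.55 in amygdala (SE 0.35, adjusted p = 0.00271) and by 1.37 in hippocampus (SE 0.29, adjusted p = 0.00116), both kept in 16 of 16 fits that left out 1 library and lost with ERCC scaling (adjusted p = 1 and 0.96). 5c-KO against WT was not called, with means of 71.4 against 54.9 in amygdala and 70.2 against 52.1 in hippocampus. The hippocampal values were 31.4 to 66.1 in WT, 25.8 to 35.1 in 2a-HET, 57.4 to 80.2 in 5c-KO and 49.0 to 108 in DM, so WT overlapped both groups without *Kdm5c*. In amygdala, WT replicate 1 was 113 while the other WT values were 33.4 to 37.9, the 2a-HET values 22.2 to 29.5 and the values without *Kdm5c* 59.2 to 86.6. The amygdala call of *Ddx4* under the *Kdm5c* factor was lost without 2a-HET replicate 2, 3 or 4 or DM replicate 1 (adjusted p 0.1 to 0.119). *Sycp3* had a difference of 1.5 in amygdala (SE 0.29, adjusted p = 5.64e-05) and 1.19 in hippocampus (SE 0.38, adjusted p = 0.0714), where the call was kept in 6 of 16 fits that left out 1 library. *Zcwpw1* had a difference of -0.42 in hippocampus (SE 0.12, adjusted p = 0.0346), lost without DM replicate 2 (adjusted p = 0.106) or DM replicate 4 (adjusted p = 0.102). DM against 2a-HET called 4 germline genes higher in amygdala (*Cyct*, *Sycp3*, *Ddx4* and *Dazl*) and 2 in hippocampus (*Cyct* and *Ddx4*), where 0.845% and 0.603% of all genes were called. *Dazl* (1.29, SE 0.39, adjusted p = 0.0993) was kept in 5 of 16 fits that left out 1 library (adjusted p up to 0.475).

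**Figure D5:**
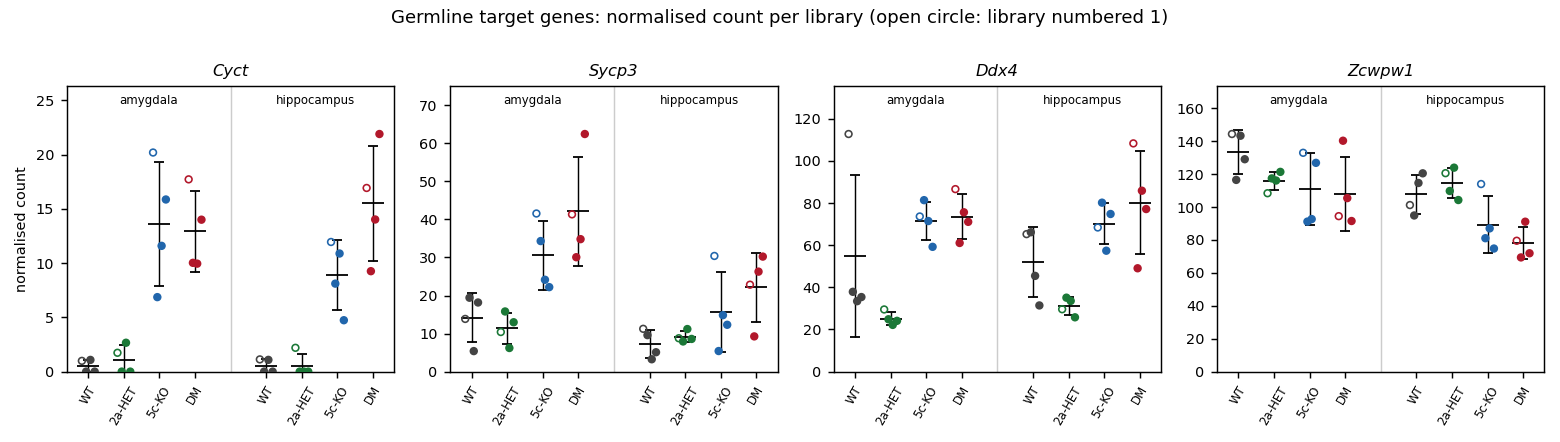
Normalised count of 4 germline genes in every library (points; the open circle is the library numbered 1), by genotype and region, with group mean and SD (bars, n = 4). *Cyct* is at most 2.66 in the libraries with *Kdm5c* and at least 4.73 in those without it, and *Zcwpw1* is lowest in DM hippocampus.

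A wider set of 46 silencing genes was counted to set the repressors beside their neighbours: 15 other PRC1 genes, 9 of the MAX network, 11 of histone H3 lysine 9 methylation, 7 of DNA methylation and 4 of PRC2. In the mutants against WT and under both additive factors, 0 of 46 were called in either region. Under the *Kdm5c* factor, 0 of 46 in amygdala and 1 of 46 in hippocampus had an unadjusted p under 0.05, edgeR called 0 in both, and the median log2 difference was -0.0019 and -0.023, against -0.0068 and -0.0090 over all genes tested. Between the regions 24 of the 46 were called, 19 higher and 5 lower in hippocampus, at the background of 47%.

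The 6 with the smallest adjusted p were *Ezh1*, a PRC2 methyltransferase (log2 difference 0.39, SE 0.034), *Mycl*, a MAX partner (1.06, SE 0.098), *Kdm2b*, the CpG-binding subunit of another variant PRC1 (0.48, SE 0.056), *Ehmt1*, the partner of EHMT2 (0.30, SE 0.037), *Bmi1*, a canonical PRC1 subunit (0.38, SE 0.056), and *Suv39h1*, another histone H3 lysine 9 methyltransferase (-0.38, SE 0.057). By list, 9 of 15 PRC1 genes, 6 of 9 MAX network genes, 6 of 11 genes of lysine 9 methylation, 2 of 7 of DNA methylation and 1 of 4 of PRC2 were called.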

How the data were processed

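RNA-seq libraries were prepared with oligo-dT priming and a directional kit, with ERCC spike-in RNA. According to the methods and the labels, the authors aligned reads to mm10 with STAR 2.5.3a, removed duplicates, counted with featureCounts of Subread 1.5.0 and tested with DESeq2 1.14.1. The tables used here hold the expected counts the authors deposited per gene and per transcript, with no normalisation, and 7.08% of gene values and 35.0% of transcript values were not whole numbers. The estimator behind these values, the annotation release and the strand setting are not given in the sources used here. Where strand was not used in counting, reads of a gene and an antisense neighbour cannot be told apart.

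Gene counts were rounded to whole numbers and fitted with DESeq2 1.42.0 in R 4.3.3 (Wald test, default size factors and independent filtering, adjusted p under 0.1 over all genes tested). Each region was fitted on its 16 libraries by genotype and, separately, with *Kmt2a* and *Kdm5c* genotype as additive factors, and the region difference was fitted on all 32 libraries in 8 groups. The difference between the regions in each mutant's change was added after the data were seen. Normalised counts are counts divided by DESeq2 size factors, within a region unless a common scale is named. Alternatives were edgeR 4.0.16 (quasi-likelihood, TMM), TMM or ERCC size factors, a filter of at least 10 counts in at least 4 libraries, an adjusted p under 0.05, a replicate block, fits of the compared groups alone, and leaving out each library or all those numbered 1. Library totals, given in the report, gave *Pcgf6* the fewest counts among the repressors, and intervals on ratios of counts cover counting error only.

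The repressors and lists were chosen with earlier results of these data known. All 10 repressors are named in each comparison. Of the germline genes, up to 4 per region with the smallest adjusted p in 5c-KO against WT are named, of the wider lists any called gene (up to 4) per genotype comparison and the 6 with the smallest adjusted p between regions, and for likeness the most correlated member. Replicate libraries of a group were separate mice and none were alike (chi-square per gene 3.89 to 135 over 48 pairs). In WT amygdala, pairs with replicate 1 gave 67.1 to 135 and the other pairs 15.8 to 35.3. That library also had the fewest genes detected among the amygdala libraries (21731). Both regions came from the same mice, which pairs them by animal, with correlations of deviations over 0.1 in 10 of 16 mice (0.00409 to 0.337). Gene coordinates are those of mm10 in the annotation used here, and promoter sequences are RefSeq's on GRCm38.p6. A list of markers that differed between the regions is not reported here.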

Additional observations from a re-analysis of the deposited data

Results flagged for a closer look

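Of the 80 groups of 4 libraries checked for a repressor with 1 value far from the rest, 2 stood out, and chance alone flags about 1 in 20. In DM amygdala the lowest *L3mbtl2* library (replicate 3) had 878 normalised counts and the others 955 to 970, a gap of 0.83 of the whole range. In DM hippocampus the highest *Setdb1* library (replicate 2) had 949 normalised counts and the others 840 to 854, a gap of 0.872 of the range.

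*Rnf2* had log2 differences of opposite sign in 5c-KO against WT, 0.0883 in amygdala and -0.187 in hippocampus, and neither passed the test (DESeq2 unadjusted p = 0.375 and 0.154). The test of the difference between the regions gave -0.275 (SE 0.16, unadjusted p = 0.0832, DESeq2 adjusted p = 1), so the difference did not pass.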

How the results depend on the processing

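Under TMM size factors and under the low-count filter, all 210 values of repressors kept their side of the threshold, and no called value changed direction. The call of *E2f6* in DM against 2a-HET amygdala was lost (0 of 10 called) with edgeR, ERCC size factors, the libraries numbered 1 left out and an adjusted p under 0.05, and that of *Dnmt1* under the *Kdm5c* factor in hippocampus was lost (0 of 10) under the same 4. Over all settings other than single left-out libraries, the log2 difference ran from -0.65 to -0.21 for *E2f6* and from -0.35 to -0.16 for *Dnmt1*. Both calls lie near the threshold, and the cause was not tested. ERCC scaling moved the median of all genes by -0.358 in DM against 2a-HET amygdala, -0.137 under the *Kdm5c* factor in hippocampus and 0.65 between regions (0.777 in WT). Its shifts reached -0.557 in DM against WT, -0.735 in DM against 5c-KO and -0.62 in the departure from additivity in hippocampus.

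Between the regions, ERCC scaling turned *E2f6* to 0.21, *Max* to 0.56, *Dnmt1* to 0.36, *Zcwpw1* to 0.49 and *Suv39h1* to 0.27 over all genotypes, and *E2f6* to 0.43, *Dnmt1* to 0.60 and *Suv39h1* to 0.40 in WT. It called 8 repressors over all genotypes, 1 in WT and 41 of the wider lists. Of the germline genes, DM against WT amygdala called 1 with edgeR, 0 with ERCC and 1 without the libraries numbered 1, 5c-KO against WT amygdala 0 with the low-count filter (*Cyct* then had no adjusted p) and 2 without the libraries numbered 1, 5c-KO against WT hippocampus 0 with ERCC and 0 without the libraries numbered 1, and DM against WT hippocampus 0 with ERCC. Without the libraries numbered 1 the wider lists had 1 call under the *Kdm5c* factor in amygdala (*Fam208a*, named after its value was seen).

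With the replicate number as a block, *E2f6* in DM against 2a-HET amygdala was lost (0 of 10), *Dnmt1* was called in DM against WT hippocampus (1 of 10; DESeq2 adjusted p = 0.0965), germline calls rose to 2 in 5c-KO and 2 in DM hippocampus, and the wider lists had 2 under the *Kdm5c* factor in hippocampus. The numbers were not taken to pair genotypes, since 10 of 24 same-numbered pairs in each region had a correlation over 0.1. Among libraries numbered 1, though, 6 of 6 pairs in amygdala (0.189 to 0.362) and 4 of 6 in hippocampus did. With the mouse as a block between regions, *Mga* was the repressor whose call changed.

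Leaving out 1 library gave 0 to 1 repressors in DM against 2a-HET amygdala, in the departure from additivity in amygdala, in DM against WT hippocampus and under the *Kdm5c* factor in hippocampus, and 5 to 6 between regions. Germline calls ran from 1 to 2 in 5c-KO and 1 to 3 in DM amygdala and from 0 to 1 in both mutants in hippocampus, and the wider lists from 0 to 1 under the *Kdm5c* factor in hippocampus and 23 to 27 between regions.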

Other observations

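Transcript tables allowed the repressors' isoforms to be described, as the share of a gene's transcript counts that its most abundant transcript took (mean ± SD over 16 libraries). *Rnf2* and *L3mbtl2* were close to single-transcript genes, and *Pcgf6* has 1 annotated transcript. The leading transcript of *E2f6* took 58.0% ± 6.12 in amygdala and 56.0% ± 9.22 in hippocampus, so that its other transcripts made up much of the gene's counts. These shares are estimates from short reads that transcripts of a gene have in common, and no test was made on them.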
